A study of Mus musculus with 27 samples.

Results

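CpG methylation was examined at 9 mouse genes that handle glucose and glycogen in the liver: the glucose transporter gene Slc2a2, the glucokinase regulator Gckr, the glycolytic genes Pfkfb1 and Pklr, the gluconeogenic genes Pck1, Fbp1 and G6pc, and the glycogen genes Gys2 and Pygl. A position belonged to the set when it lay within the GRCm38 span of one of these genes or up to 5 kb either side and was listed in at least 2 of 3 samples of every strain. The rule gave 399 positions, out of 1951628 positions in the whole series that met the same listing rule. Within the same 9 windows, 1135 positions appeared in 1 sample or more, and 342 appeared in all 27.

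The measurements came from reduced representation bisulfite sequencing, in which the enzyme MspI cuts DNA at CCGG and bisulfite conversion separates methylated from unmethylated cytosines near the cut sites. The samples were hepatocytes from the liver of female mice aged 12 weeks, with 3 samples for each of 9 inbred strains. WSB/EiJ, PWK/PhJ and CAST/EiJ derive from wild mice, NZO/HlLtJ is prone to obesity and NOD/ShiLtJ to autoimmune diabetes, and the others were C57BL/6J, DBA/2J, A/J and 129S1/SvImJ. Strain was the sole difference the labels stated, and they call the samples of a strain biological replicates. The p-values below judge differences among strains against the spread between those samples.

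The liver takes up glucose through a transporter of the cell membrane, traps it by phosphorylation and stores it as glycogen after a meal. In fasting it releases glucose from glycogen and makes new glucose from lactate, glycerol and amino acids. Cytosine methylation at CpG sites is usually low at CpG-rich promoters and high along transcribed gene bodies, and promoters with few CpG sites can carry intermediate levels that differ between tissues. In female cells one X chromosome is inactive, and CpG-rich promoters on the inactive copy carry methylation.

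A fragment needs CCGG sites, and each measurement needs a CpG. The sequences just before 4 annotated starts therefore bear on what the assay could read at these genes. Each is the 250 bases before a start in RefSeq's annotation of GRCm38.p6, written 5′ to 3′ on the strand of the gene, with every CpG in capitals. Pck1 (plus strand, chr2:173152823-173153072) and the downstream start of Pklr (plus strand, chr3:89136373-89136622) were read. Pygl (minus strand, chr12:70227684-70227933), with the most CpG sites of the 4, was read, and G6pc (plus strand, chr11:101367466-101367715), with the fewest, gave no position under the listing rule.
Pck1: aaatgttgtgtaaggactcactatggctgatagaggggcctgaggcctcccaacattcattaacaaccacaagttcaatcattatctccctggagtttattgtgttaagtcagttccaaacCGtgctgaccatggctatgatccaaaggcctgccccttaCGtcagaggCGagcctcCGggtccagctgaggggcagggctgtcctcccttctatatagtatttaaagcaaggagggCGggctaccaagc
Pklr: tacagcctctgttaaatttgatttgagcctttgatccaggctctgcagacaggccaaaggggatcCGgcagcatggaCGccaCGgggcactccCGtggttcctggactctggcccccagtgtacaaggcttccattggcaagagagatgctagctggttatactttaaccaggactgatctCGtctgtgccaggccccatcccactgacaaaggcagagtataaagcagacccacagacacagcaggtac
Pygl: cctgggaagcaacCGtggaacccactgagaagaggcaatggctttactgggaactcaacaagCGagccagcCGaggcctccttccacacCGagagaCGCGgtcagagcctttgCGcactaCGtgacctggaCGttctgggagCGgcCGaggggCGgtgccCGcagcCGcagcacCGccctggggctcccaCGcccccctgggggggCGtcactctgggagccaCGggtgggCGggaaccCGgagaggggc
G6pc: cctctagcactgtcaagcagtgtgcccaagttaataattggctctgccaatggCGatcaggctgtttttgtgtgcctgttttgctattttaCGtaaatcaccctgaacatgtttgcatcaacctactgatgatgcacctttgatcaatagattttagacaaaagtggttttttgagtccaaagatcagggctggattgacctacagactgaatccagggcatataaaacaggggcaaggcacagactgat

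These 250 bases held 5 CpG sites before the Pck1 start, 5 before the downstream Pklr start, 20 before Pygl and 2 before G6pc. In windows that run 50 bases further into the gene, Pck1 had 6 CpG sites, the downstream Pklr start 8, Pygl 22 and G6pc 4. Over the same windows of all 32851 annotated starts the median was 7 CpG sites, so the Pklr window lay just above it and the Pck1 window just below, and 52.8% of the windows held a CCGG. The windows of Slc2a2, Fbp1 and the upstream Pklr start held no CCGG, and 0 of their CpG positions were listed in any sample. The window of Gckr held 8 CpG sites and 1 CCGG; 10 of its 16 CpG positions, counting both strands, were listed in at least 1 sample, but 0 met the listing rule. The window of G6pc also held 1 CCGG; 1 of its 8 CpG positions was listed in at least 1 sample, and 0 met the rule. The rule was met by 8 of 12 CpG positions at Pck1, 10 of 16 at the downstream Pklr start and 11 of 44 at Pygl. Of 302684 positions under the listing rule inside annotated windows, 302570 fell on a CpG of the RefSeq sequence, so the coordinates of the values and of the sequences refer to the same bases.

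The 9 genes were read very unevenly. Positions of each gene were kept apart as the promoter (within 1000 bp of any annotated start), the gene body (the rest of the span) and the upstream and downstream flanks. Gckr had 110 positions and Pklr 106, followed by Pygl with 42, Pfkfb1 with 41, Pck1 with 39, Fbp1 with 31, G6pc with 18, Gys2 with 10 and Slc2a2 with 2. A gene was called poorly read when it had fewer than 10 positions or none within 1000 bp of its start, which held for Slc2a2, Gckr, G6pc and Gys2. For Gckr the high count misleads: 102 of its 110 positions lay in the upstream flank, 96 of them in a stretch from 31295482 to 31296008 on chromosome 5 around the starts of the neighbouring gene Fndc4 (31295932 and 31295935, minus strand). For Gys2 no strand or start was at hand, and 0 positions lay within 1000 bp of either end of its span.

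**Figure D1:**
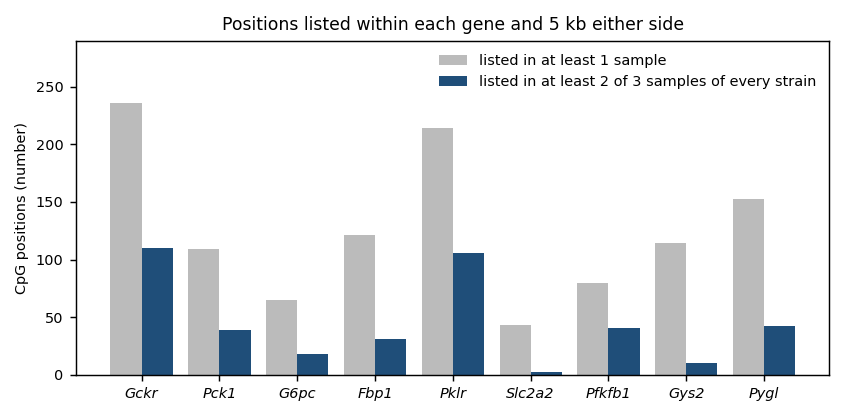
Number of CpG positions in each gene window (the gene's span and 5 kb either side) listed in at least 1 sample (grey) and in at least 2 of 3 samples of every strain (blue). Gckr falls from 236 to 110 positions, Pklr from 214 to 106 and Slc2a2 from 43 to 2.

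A gene body well above the promoter was present at 4 of the 5 genes with a value for both. The body exceeded the promoter by 82.9 percentage points ± 6.31 (SD over 27 samples) at Pklr, by 83.7 ± 5.08 at Fbp1, by 80.2 ± 6.00 at Pygl and by 69.2 ± 7.44 at Pfkfb1, in 27 of 27 samples each time. Of these, the Pfkfb1 body rested on 2 positions, and its promoter averaged 23.6%, which is not low. The Fbp1 promoter rested on 3 positions from 657 to 685 bp past the start. Pck1 was different in level: its promoter averaged 11.4% and its body 14.5%, a difference of 3.10 points ± 7.88, with the body higher in 18 of 27 samples. Among 17783 autosomal gene bodies with at least 3 positions, 9.65% lay below the body of Pck1, and their median was 82.3%. The 5 body positions of Pck1 lay near its 3′ end, out of 44 body positions listed in at least 1 sample. Of these 5, 4 lay from 5256 to 5308 bp past the start and the last at 6147 bp. The first stretch of the gene beyond the promoter was not read under the listing rule. The body value of Pck1 therefore describes a short part near the 3′ end.

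**Figure D2:**
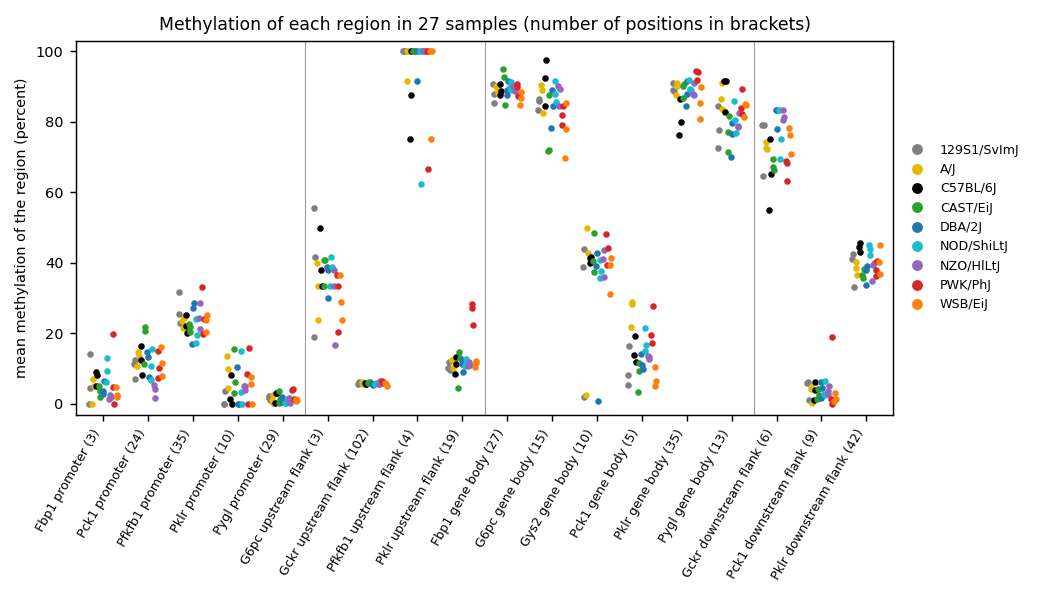
Mean methylation (percent) of each region with at least 3 positions in each of 27 samples, coloured by strain, with promoters at the left, then upstream flanks, gene bodies and downstream flanks. Gene bodies sit mostly above 70%, apart from Pck1 (mean 14.5%) and Gys2 (36.7%), and the promoter of Pfkfb1 sits at 16.9 to 33.2%.

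Strain differences were tested with limma's moderated F test over the 9 strains, on log2((percent + 5)/(100 - percent + 5)), fitted over all genes and with Benjamini-Hochberg adjustment over all of them. A region was called when its adjusted p was under 0.05 and its strain means spanned at least 10 percentage points; a single position needed a span of at least 25 points. A region entered the test when it had at least 3 positions, a value in all 27 samples and a mean at least 2.5 points from both 0 and 100%. Of 23 regions of the 9 genes that held a position, 16 could be tested, and 6 were called (37.5%), where 15.7% of all 48018 tested regions were called. The median span of the 16 tested regions was 11.9 points, against 7.77 over all tested regions. By kind of region, 16.7% of promoters, 14.1% of gene bodies, 16.9% of upstream flanks and 16.8% of downstream flanks were called over all genes. Of the 399 positions, 252 lay in the tested range of means (from 2.5% upwards, with the same margin below 100%), and 9 were called (3.57%), where 4.34% of all 868268 tested positions were called. Without adjustment, 49 of the 252 had a p under 0.05 (19.4%), against 15.4% of all tested positions. The median span of the 252 tested positions was 19.4 points, against 17.03 over all tested positions. Neighbouring positions, and both strands of the 157 CpGs read on both strands, can be read from the same fragments and are not independent.

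**Figure D3:**
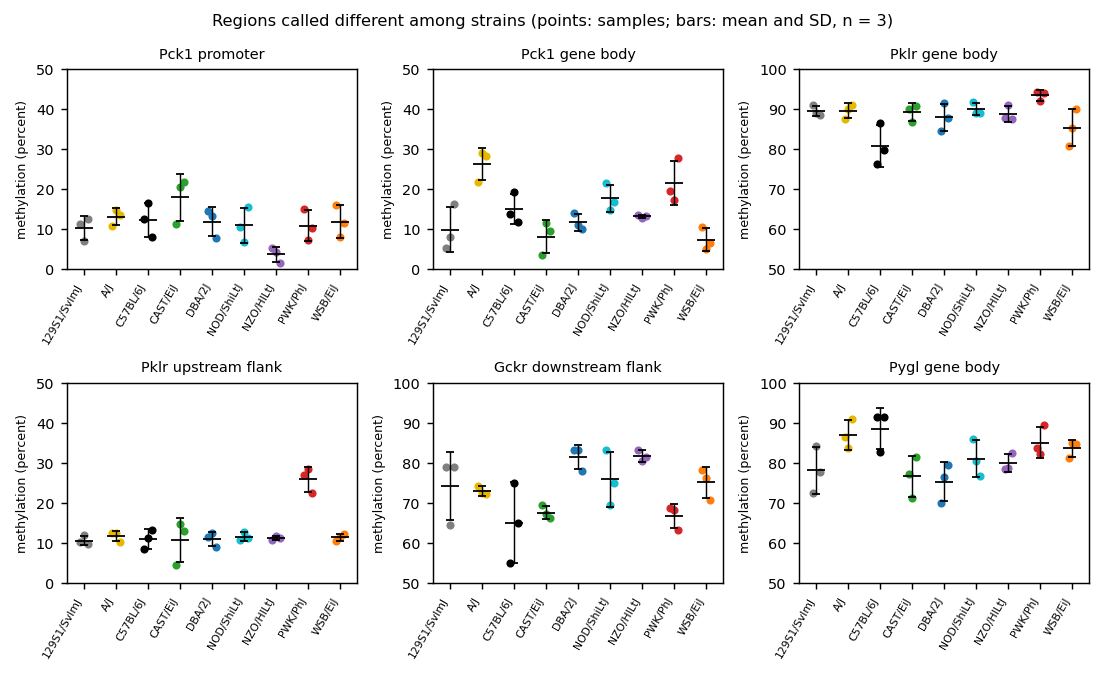
The 6 regions called different among strains, with the mean methylation (percent) of each sample as points and the mean and SD of each strain (n = 3) as bars; the axes cover 50 points, starting at 0 or at 50. PWK/PhJ alone stands high in the Pklr upstream flank (26.0% against 10.6 to 11.8% in the other strains), and the Pck1 body shows a graded order of strains from 7.38% to 26.3%.

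Slc2a2 encodes GLUT2, the main glucose transporter of the hepatocyte membrane (chr3:28697903-28728361). It kept 2 of 43 listed positions, both in the gene body at 22855 and 22983 bp past the start, with a mean of 89.3%. Strain means ran from 70.8% in CAST/EiJ, where 2 samples had values of 58.3 and 83.3%, to 97.4% ± 4.44 (SD, n = 3) in 129S1/SvImJ. Neither position was called, and the region was not tested because it held fewer than 3 positions. The promoter of Slc2a2 was not read here.

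Gckr encodes the protein that holds glucokinase in the nucleus when glucose is low (chr5:31297266-31327302). Its promoter had no position under the listing rule, and 10 of the 17 positions listed there met the 2-of-3 condition in PWK/PhJ, against 0 to 4 in each other strain. The 96 positions around the starts of Fndc4 averaged 0.533%, and 6 positions just beyond them, from 31294713 to 31294821, averaged 91.2%. The whole upstream flank did not pass the test (5.87%, span 0.615 points, limma adjusted p = 0.895).

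Inside Gckr, 2 positions were read, and CAST/EiJ was lowest at both. At 31320324 the 3 CAST/EiJ samples had 50, 54.5 and 73.9%, and the strain means elsewhere ran from 77.2% in PWK/PhJ to 100% in 129S1/SvImJ. At 31320389 the CAST/EiJ samples had 53.8, 40 and 77.8%, and the strain means elsewhere ran from 87.2 to 100%. All CAST/EiJ samples lay below all samples of the highest strain at both positions, and both were called (adjusted p = 0.0195 and 0.00297, limma). At 31320324 the CAST/EiJ samples overlapped those of PWK/PhJ, which had 60, 91.7 and 80%. The call at 31320324 was lost without CAST/EiJ replicate 1 (limma adjusted p = 0.0859) or replicate 4 (0.0785), with an offset of 1 in place of 5 (0.0610) and with no filter on the mean (0.0514). Without CAST/EiJ the adjusted p was 0.382 at 31320324 and 0.274 at 31320389.

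The downstream flank of Gckr, 6 positions from 31328373 to 31328657, was called (adjusted p = 0.0219, limma). It was highest in NZO/HlLtJ, with 83.3, 80.6 and 81.5%, and in DBA/2J, with 83.3, 83.3 and 78.1%. It was lowest in C57BL/6J, with 55, 75.2 and 65.2%, in PWK/PhJ, with 68.8, 68.3 and 63.3%, and in CAST/EiJ, with 69.4, 67.2 and 66.2%. The C57BL/6J samples did not overlap those of NZO/HlLtJ, although they were the most scattered of the 9 strains (SD 10.1 points). The call was lost without CAST/EiJ (adjusted p = 0.0534), PWK/PhJ (0.0596), DBA/2J (0.0681) or NZO/HlLtJ (0.0809).

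Pfkfb1 encodes the liver form of the enzyme that makes and removes fructose 2,6-bisphosphate, the signal that switches between glycolysis and gluconeogenesis, and it lies on the X chromosome (chrX:150587445-150643878). RefSeq gives it 4 starts; the 35 promoter positions all lay from -204 to 357 bp around the start at 150588243, whose window held 20 CpG sites and 3 CCGG. The span of another gene, Apex2, ends at 150588206, within the same stretch, so these positions belong to both genes' surroundings. The windows of the other 3 starts held 1 or 2 CpG sites and no CCGG, and none of their CpG positions met the listing rule.

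The Pfkfb1 promoter, read only around the start at 150588243, averaged 23.6%, with the lowest sample at 16.9%, the median at 23.4% and the highest at 33.2%. Which of the 4 starts these hepatocytes use was not tested. Strain means lay between 20.3% in NOD/ShiLtJ and 26.7% in 129S1/SvImJ and did not pass the test (adjusted p = 0.760, limma). This was a common level for X promoters in these female samples. Among 453 X promoters the median was 24.6%, with quartiles of 21.1 and 31.7%, and 81.2% of them lay between 15 and 50%, against 6.01% of 14184 autosomal promoters. The body of Pfkfb1 (2 positions) averaged 92.8% and was not tested, having fewer than 3 positions. Its upstream flank (4 positions) averaged 94.3% and was left out because 1 DBA/2J sample had no value there. When regions without a value in some samples were included, its strain means spanned 12.5 points and were not called (limma adjusted p = 0.803).

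Pklr encodes the pyruvate kinase of liver and red blood cells, the last step of glycolysis (chr3:89136122-89146815). The gene is known to use an upstream start in erythroid cells and a downstream start in liver. The window of the upstream start (89136142) held 3 CpG sites and no CCGG and was not read, while the 10 promoter positions lay from -185 to 30 bp around the downstream start (89136623), in the sequence printed above. They averaged 5.45%, with samples from 0 to 16.0%. Strain means ran from 1.25% in 129S1/SvImJ to 9.39% in A/J, but the samples of most strains scattered over the same range, and the promoter was not called (adjusted p = 0.695, limma).

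The upstream flank of Pklr held a difference confined, among the 9 strain means, to PWK/PhJ. The 3 PWK/PhJ samples averaged 27.1, 28.4 and 22.5% over its 19 positions, and the other 24 samples lay between 4.40 and 14.8%, with strain means of 10.6 to 11.8%. These means do not all cover the same positions. The PWK/PhJ sample at 27.1%, replicate 2, had no value at -3045 bp, and the sample at 4.40%, CAST/EiJ replicate 1, had none at the 3 positions outside the low stretch described next; the other 25 samples listed all 19. The flank was called (adjusted p = 0.00249, limma), and without PWK/PhJ the remaining strain means spanned 1.15 points (adjusted p = 0.997). The 16 positions listed in all 27 samples form a low stretch from -3857 to -3612 bp relative to the upstream start, on which alone the flank had an adjusted p of 8.28e-07. There PWK/PhJ had 18.6, 16.6 and 10.6%, and the means of the other strains ran from 1.47% in WSB/EiJ to 4.80% in CAST/EiJ.

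In the Pklr flank, 4 single positions were called by limma. At -3822 and -3821 bp, the strands of one CpG, PWK/PhJ averaged 33.1% ± 3.84 (SD, n = 3) and 34.8%; the next strains were DBA/2J with 15.9% at the first and NZO/HlLtJ with 14.6% at the second (adjusted p = 0.0270 and 0.0188). At -3045 bp both listed PWK/PhJ samples had 100%, while the other strain means ran from 11.8% in NZO/HlLtJ to 43.6% in CAST/EiJ (adjusted p = 0.0231). Leaving out PWK/PhJ replicate 1, 2 or 3 gave a limma adjusted p of 0.0694, 0.0990 and 0.0860 at -3822 and of 0.0530, 0.104 and 0.0648 at -3821, and leaving out replicate 1 or 3 gave 0.2197 and 0.2191 at -3045. An offset of 1 in place of 5 ended all 3 calls as well, with 0.0578 at -3822, 0.161 at -3821 and 0.0679 at -3045. The call at -3822 was also lost without C57BL/6J (0.103), and that at -3045 with no filter on the mean (0.103).

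The fourth position, at -4543 bp, followed another order of strains. DBA/2J had 50, 77.3 and 53.8%, all C57BL/6J samples and both listed CAST/EiJ samples had 100%, and the other strain means ran from 75.5 to 86.5% (adjusted p = 0.000461, limma). The highest DBA/2J sample lay above the lowest samples of NZO/HlLtJ, 129S1/SvImJ, NOD/ShiLtJ and PWK/PhJ. Without DBA/2J the adjusted p was 0.00183 with a span of 24.5 points, just under the 25 required.

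**Figure D4:**
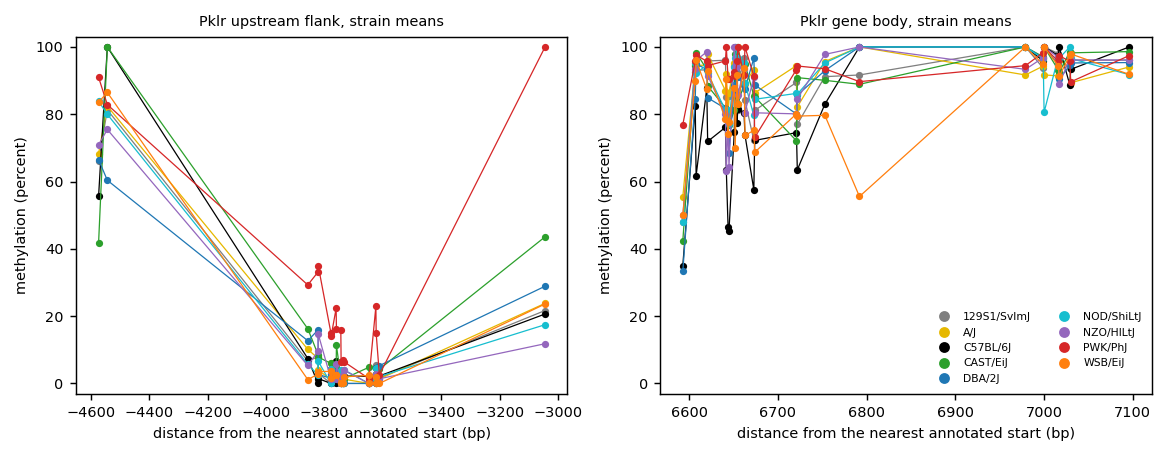
Strain means of methylation (percent) at each position of the Pklr upstream flank (left) and of the densely read part of its gene body (right), against the distance from the nearest annotated start; lines join neighbouring positions. PWK/PhJ (red) has the highest mean over the stretch from -3857 to -3612 bp and stands at 100% at -3045 bp, and C57BL/6J (black) has the lowest mean over the body stretch from 6593 to 7096 bp; neither holds at every position of its stretch.

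The body of Pklr averaged 88.3% over 35 positions and was called (adjusted p = 0.0160, limma). It was lowest in C57BL/6J, with 76.3, 86.5 and 79.8%, and highest in PWK/PhJ, with 94.4, 92.0 and 94.1%. The samples of these strains did not overlap, and WSB/EiJ came next to C57BL/6J with 80.8, 85.2 and 90.0%. In all, 29 of the 35 positions lay in one stretch from 6593 to 7096 bp past the downstream start, with a mean of 87.9%. The call was lost without C57BL/6J (adjusted p = 0.115) or PWK/PhJ (0.123), and without C57BL/6J replicate 1 (0.0568) or replicate 4 (0.0522). The 42 positions of the downstream flank lay inside the span of the neighbouring gene Hcn3, averaging 2.42% over the 10 positions nearest to Pklr, 35.8% over the next 22 and 84.5% over the last 10, and were not called as a region (adjusted p = 0.127).

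Pck1 encodes cytosolic phosphoenolpyruvate carboxykinase, the first committed enzyme of gluconeogenesis, which is induced by fasting hormones through cAMP (chr2:173153073-173159274). Of 27 promoter positions listed, 24 met the rule, and so did 8 of the 12 CpG positions in the printed sequence and the next 50 bases. The cAMP response element known at this promoter, TTACGTCA, was found once in that window, with its cytosine at 173152983. These letters, on either strand, occurred in 0.499% of all annotated windows. Methylation at its CpG averaged 8.10% on the plus strand at -90 bp and 2.72% on the other at -89 bp. At -90 bp the strain means were 40% in WSB/EiJ, 15.1% in CAST/EiJ and 0 in 4 strains, and the position was not called (adjusted p = 0.107, limma).

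Methylation of the Pck1 promoter was uneven along its length. The 5 positions from -781 to -723 bp averaged 37.5%, 16 positions from -390 to 65 bp averaged 4.80%, and 3 positions from 405 to 435 bp averaged 3.29%. In the far stretch the 3 NZO/HlLtJ samples had 17.1, 13.4 and 6.67% and the PWK/PhJ samples 13.7, 11.5 and 10.8%, while those of A/J had 51.4, 67.1 and 59.5%. All NZO/HlLtJ and PWK/PhJ samples were below all samples of the other 7 strains, the lowest of which was a C57BL/6J sample at 20%. In the middle stretch the strain means were highest in CAST/EiJ, at 12.4% ± 10.8, and in PWK/PhJ, at 9.46% ± 5.59, and lowest in A/J, at 1.05% ± 0.945. The stretches were drawn after the values were seen and carry no test of their own.

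As a whole the promoter was called (adjusted p = 0.0417, limma). NZO/HlLtJ had 5.33, 4.24 and 1.57%, below all 24 other samples, the lowest of which had 6.79%. CAST/EiJ had 11.3, 20.6 and 21.9%, and the remaining 7 strain means ran from 10.3 to 13.1%. Of the 24 positions, C57BL/6J replicate 4 listed 19, WSB/EiJ replicate 3 listed 21 and 129S1/SvImJ replicate 2 listed 23. On the 15 positions listed in all 27 samples the adjusted p was 0.00669 (limma). Without NZO/HlLtJ the adjusted p was 0.649, without CAST/EiJ 0.0964 and without A/J 0.0552. The call was also lost on leaving out any of 13 single samples, with adjusted p from 0.0521 to 0.192: 129S1/SvImJ replicate 1, A/J replicates 2 and 3, C57BL/6J replicate 1, CAST/EiJ replicates 4 and 5, DBA/2J replicate 3, NOD/ShiLtJ replicate 1, NZO/HlLtJ replicates 1, 2 and 3, PWK/PhJ replicate 1 and WSB/EiJ replicate 4.

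Among single Pck1 positions, 12 of 34 tested had an unadjusted p under 0.05 and 2 were called, where the shares over all tested positions were 15.4 and 4.34%. At -775 bp A/J averaged 31.9%, with 41.2, 42.1 and 12.5%, and NZO/HlLtJ 1.90%, with 5.71, 0 and 0% (adjusted p = 0.0366, limma). NOD/ShiLtJ, at 7.79%, and PWK/PhJ, at 4.79%, were low there as well. That call was lost on leaving out any of 13 single samples, with adjusted p up to 0.0935: A/J replicates 1 and 2, CAST/EiJ replicates 1 and 5, DBA/2J replicates 2, 3 and 4, NOD/ShiLtJ replicate 1, NZO/HlLtJ replicates 2 and 3, PWK/PhJ replicates 2 and 3 and WSB/EiJ replicate 4. It was also lost with an offset of 1 (0.0751), on the untransformed percent (0.0779), with no filter on the mean (0.0769), and without CAST/EiJ (0.0674), DBA/2J (0.0646), NZO/HlLtJ (0.185) or PWK/PhJ (0.0961). At 435 bp past the start PWK/PhJ had 25, 20 and 33.3% and CAST/EiJ 0, 33.3 and 50%, while every sample of the other 7 strains was at 0 (adjusted p = 0.00575). Without PWK/PhJ the adjusted p was 0.176. Only PWK/PhJ and CAST/EiJ brought the mean of this position into the tested range, and without both strains it could not be tested.

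**Figure D5:**
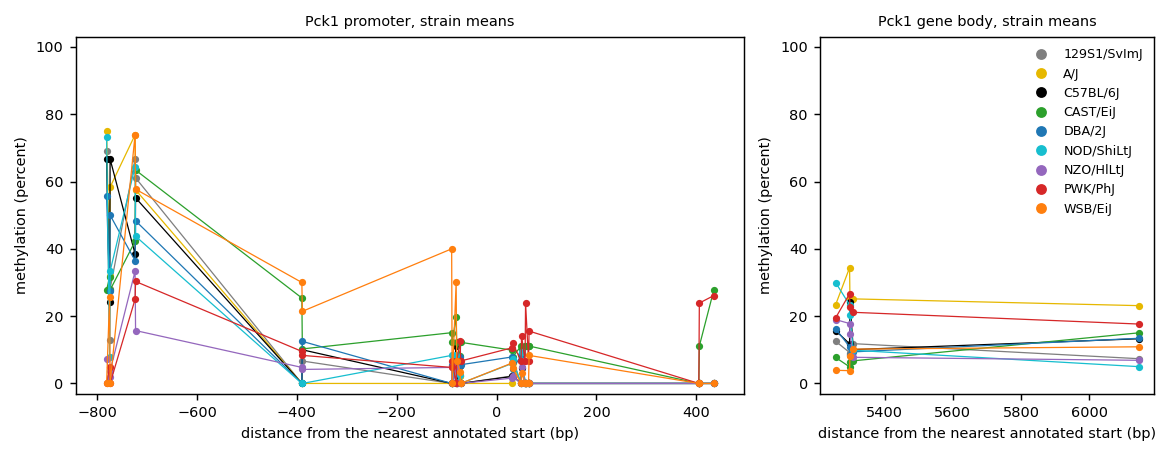
Strain means of methylation (percent) at each position of the Pck1 promoter (left) and gene body (right) against the distance from the annotated start; lines join neighbouring positions. Levels fall from a mean of 37.5% between -781 and -723 bp to 4.80% between -390 and 65 bp, with the means of NZO/HlLtJ (purple) and PWK/PhJ (red) lowest over the far stretch, and A/J (yellow) and PWK/PhJ have the highest means over the body, though not at every position.

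The body of Pck1 showed the widest span among the called regions of the 9 genes, 18.9 points (adjusted p = 0.00190, limma). It was read at 5 positions near the 3′ end. Of these, 4 lay in a stretch from 5256 to 5308 bp, with a mean of 15.1% and a span of 20.7 points. A/J had 21.7, 28.9 and 28.2%, and PWK/PhJ 19.6, 17.4 and 27.7%. At the other end WSB/EiJ had 10.5, 5.11 and 6.49%, CAST/EiJ 3.41, 11.6 and 9.47% and 129S1/SvImJ 5.35, 8.06 and 16.3%. The A/J and PWK/PhJ samples did not overlap those of WSB/EiJ, CAST/EiJ or 129S1/SvImJ. The middle of the order was held by DBA/2J at 11.7%, NZO/HlLtJ at 13.2%, C57BL/6J with 13.9, 19.3 and 11.9%, and NOD/ShiLtJ at 17.7%, neighbours that differed by less than the largest of their SDs, 3.82 points. The call was kept in all 27 refits without a single sample, with adjusted p from 0.000397 to 0.00702, and in the refits without each strain. No single body position was called.

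The strain order of the Pck1 body differed from that of its promoter: CAST/EiJ led the promoter and was next to last in the body, and NZO/HlLtJ, lowest at the promoter, held the middle of the order in the body. That difference between regions was not tested. Over the 27 samples, the gene bodies most like it among 2476 other called bodies were those of Zkscan5 (25 positions, Pearson r = 0.833), Mzf1 (140 positions, r = 0.795) and Sirt4 (101 positions, r = 0.785). The samples of a strain share that strain's level, so these values describe 9 strains more than 27 independent points. They are the highest values of a search among bodies already called different among the same strains, and the likeness was not tested. Downstream of Pck1, 9 positions averaged 3.83% and were not called (adjusted p = 0.984, limma); 1 PWK/PhJ sample there stood at 18.9% and the other 2 at 1.39 and 0%.

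Fbp1 encodes fructose-1,6-bisphosphatase, the enzyme that opposes phosphofructokinase in gluconeogenesis (chr13:62864753-62888298, minus strand). Its body averaged 89.1% over 27 positions, with samples from 84.7 to 95.0%, and was not called (span 4.23 points, adjusted p = 0.703, limma). The exception along it was a CpG read on both strands 19866 and 19865 bp past the start, which averaged 25.8% between stretches of 95.9 and 90.0%. Strain means of this CpG spanned 41.7 points, with CAST/EiJ highest and NOD/ShiLtJ lowest, and neither strand was called. The promoter rested on 3 positions from 657 to 685 bp past the start and averaged 5.39%, with samples from 0 to 19.8% and no call (adjusted p = 0.649). One position was called, at 62865075: the 2 listed CAST/EiJ samples had 66.7 and 83.3%, and all 19 listed samples of the other strains had 100% (adjusted p = 0.0170). It was listed in 21 of 27 samples, and its span was 25 points, the minimum for a call. Only the CAST/EiJ samples brought its mean into the tested range. Without CAST/EiJ, or without CAST/EiJ replicate 4, it could not be tested.

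G6pc encodes the catalytic subunit of glucose-6-phosphatase, the last step of glucose release (chr11:101367716-101377903). Its promoter had 7 listed positions and 0 under the rule; in CAST/EiJ 0 of them met the 2-of-3 condition, and in each other strain 3 to 6 did. The body averaged 84.6% over 15 positions, all more than 8 kb past the start. C57BL/6J was highest, with 84.6, 92.4 and 97.6%, and CAST/EiJ lowest, with 71.6, 72.1 and 87.6%, and their samples overlapped. WSB/EiJ was nearly as low, with 69.8, 85.4 and 78.0%. These means do not all cover the same positions. The C57BL/6J samples listed 14, 13 and 11 of the 15, NOD/ShiLtJ replicate 1 listed 9, and each CAST/EiJ sample listed 15. On the 7 positions listed in all 27 samples the limma adjusted p was 0.0551. The body was not called (adjusted p = 0.115, limma), but it was on leaving out C57BL/6J replicate 1 (0.0312) or CAST/EiJ replicate 5 (0.0373). Within it, 7 positions from 9381 to 9508 bp ran from 67.5% ± 15.6 in CAST/EiJ to 90.9% ± 8.52 in C57BL/6J, and 8 positions from 8604 to 9049 bp lay between 83.1 and 92.3% in all strains. The upstream flank (3 positions) averaged 34.8%, with samples from 16.7 to 55.6%, and was not called (adjusted p = 0.806).

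Gys2 encodes the liver glycogen synthase (chr6:142422612-142473130). Its 10 positions fell into 2 kinds: 4 towards the lower-coordinate end of the span averaged 93.5 and 94.7% in pairs, and 6 from 142470493 to 142470814 averaged 5.38%. The mean over the body, 36.7%, therefore describes neither kind. In all, 3 samples (1 each of 129S1/SvImJ, A/J and DBA/2J) had no value at the high positions and stood at 0.794 to 2.58%, against 31.2 to 49.9% in the other 24. No strain difference was called (adjusted p = 0.812, limma), in a test that mixed these unlike sets of positions. On the 6 positions listed in all 27 samples the limma adjusted p was 0.304. At the 6 low positions the strain means ran from 1.38% ± 0.298 in NOD/ShiLtJ to 9.47% ± 8.53 in PWK/PhJ.

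Pygl encodes the liver glycogen phosphorylase, which releases glucose units from glycogen (chr12:70190815-70227683, minus strand). Its promoter was low in every sample, from 0.203 to 4.09%, with a mean of 1.55% over 29 positions. This was below the 2.5% needed for the test, and 52.3% of autosomal promoters lay lower still. The 12 positions from -292 to 19 bp, which include CpGs of the printed sequence, averaged 0.843%, and 17 positions from 455 to 813 bp past the start averaged 2.06%. A long noncoding RNA gene, F730035M05Rik, starts on the opposite strand at 70227841, inside the same low stretch.

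The body of Pygl averaged 81.8% over 13 positions and was called (adjusted p = 0.0366, limma). C57BL/6J had 91.7, 82.7 and 91.5% and A/J 86.5, 83.7 and 91.0%, while DBA/2J had 70.1, 76.6 and 79.6% and CAST/EiJ 77.2, 71.4 and 81.5%. The C57BL/6J and A/J samples lay above all samples of DBA/2J and CAST/EiJ. C57BL/6J replicate 1, at 91.7%, listed 6 of the 13 positions, and 1 sample each of 129S1/SvImJ and NOD/ShiLtJ listed 10. The order of strains varied along the gene, over stretches drawn after the values were seen. From 29830 to 30001 bp past the start CAST/EiJ was lowest, at 76.0% against 87.5 to 96% in the other strains, and from 22548 to 22588 bp DBA/2J was lowest, at 72.8% against 79.3 to 93.9%. The position at 5940 bp was low in most samples, with a mean of 17.4%. Its strain means spanned 50 points, from 0 in all 3 DBA/2J samples to 50% in PWK/PhJ, whose samples had 50, 0 and 100%; C57BL/6J averaged 37.5% over 2 samples, since replicate 1 had no value there. No single position was called. On the 6 body positions listed in all 27 samples the adjusted p was 0.383, and without C57BL/6J, DBA/2J, CAST/EiJ or A/J it was 0.0825, 0.0768, 0.0628 and 0.0625. Leaving out any of 13 single samples also ended the call, with adjusted p from 0.0507 to 0.0836: 129S1/SvImJ replicate 3, A/J replicates 1 and 3, C57BL/6J replicates 1 and 4, CAST/EiJ replicates 1 and 4, DBA/2J replicates 2 and 3, NZO/HlLtJ replicates 1 and 2 and WSB/EiJ replicates 3 and 4.

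A list of 48 further genes of glycolysis, gluconeogenesis and glycogen metabolism was counted in the same fit. Of 42 promoters with at least 3 positions, 17 were in the tested range and 2 were called, where 16.7% of all tested promoters were. Their median level was 1.44%, against 1.48% over all promoters. Gpi1, the isomerase of the step after glucose phosphorylation, was highest in DBA/2J at 16.0% and lowest in C57BL/6J at 0.378% (adjusted p = 1.58e-11, limma), and the X-linked Phka1, a subunit of phosphorylase kinase, was highest in C57BL/6J at 26.9% and lowest in CAST/EiJ at 16.0% (0.0489). Of 36 bodies with at least 3 positions, 35 were tested and 3 were called, where 14.1% of all tested bodies were. Both counts are small, and neither was tested against the share over all genes. Called bodies included those of the aldolase gene Aldoa (PWK/PhJ 28.4%, WSB/EiJ 5.85%, limma adjusted p = 7.42e-06) and the glycogen-targeting subunit gene Ppp1r3c (CAST/EiJ 45.4%, NZO/HlLtJ 24.9%, 0.0109). Of 3 genes read at their ends without a known start, 1 was tested and 0 were called.

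The labelled cell type could not be checked at the promoters of hepatocyte genes, because 0 of 6 listed hepatocyte markers had 3 positions there. Of 14 listed markers of other liver cells, 8 had a value. At the promoter, the endothelial Kdr averaged 3.13%, the bile duct gene Epcam 11.4%, and the stellate cell genes Des and Lrat 13.6 and 5.93%. For genes whose start was not at hand, positions near both ends of the span were averaged instead, which gave 86.9% for the macrophage gene Adgre1, 24.5 and 1.02% for the bile duct genes Krt19 and Sox9, and 49.8% for the stellate cell gene Col1a1. Strain differences at these markers are described by span alone, with no test result. The median span over all tested regions was 7.77 points, and Adgre1 rested on 4 positions. The strain means of Col1a1 spanned 17.9 points (C57BL/6J highest, WSB/EiJ lowest), those of Adgre1 13.2 points (129S1/SvImJ highest, NZO/HlLtJ lowest), those of Epcam 10.4 points (CAST/EiJ highest, WSB/EiJ lowest) and those of Lrat 7.58 points (PWK/PhJ highest, NOD/ShiLtJ lowest), while the other 4 spanned 0.535 to 2.97 points. Methylation is not expression, and the part of other cell types in the results above was not tested. The number of reads behind each percentage is unknown, so no counting interval could be given; between 2904787 and 3156965 positions were listed per sample. The C57BL/6J files name the mitochondrial chromosome M and those of the other strains MT, so any difference in processing behind that naming and a C57BL/6J effect cannot be told apart.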

How the data were processed

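Methylation was measured by reduced representation bisulfite sequencing in 27 samples, 3 from each of 9 strains. The authors deposited one file per sample, which lists positions with a percent methylation and no read counts, per the file headers. Per the submitters' processing notes the tools were Trim Galore 0.6.3, Bowtie2 and Bismark 0.22, and the builds GRCm38 and mm10, with no role stated; the coverage minimum is not given in the sources used here. The depth per value is therefore unknown.

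Positions were joined over samples and kept when listed in at least 2 of 3 samples of every strain. Region values are means per sample over the listed positions of a promoter (within 1000 bp of a RefSeq start, GRCm38.p6), a gene body or a 5 kb flank, for regions with at least 3 positions and a value in all 27 samples, over all 49997 genes of the table. Because the files hold percentages, limma 3.58.1 (R 4.3.3) was used on log2((percent + 5)/(100 - percent + 5)), with strain as a 9-level factor, for means of 2.5 to 97.5%. The F test was written out for missing values and gave 0 different calls from limma's own functions on 704330 positions listed in all 27 samples; it was also tested on simulated data. Python 3.11.15, numpy 2.4.6, pandas 2.3.3 and matplotlib 3.10.9 did the rest.

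Named are all 9 genes, up to 5 called positions per gene by span, pathway genes with a called promoter or body whose highest and lowest strains do not overlap, and the 3 bodies most like the called region of largest span. One called pathway gene is not reported here. The members and lists were chosen with earlier results of these data known. Alternatives were the listing rule, offset, scale, filters, window, strand averaging, a replicate block, and leaving out samples and strains; leaving out strains other than C57BL/6J, or CAST/EiJ with PWK/PhJ, including regions without a value in some samples, and drawing stretches at gaps over 300 bp were chosen after seeing the data. Strain genomes were not used here; whether a sequence variant changes a listed position or its percentage was not tested.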

Additional observations from a re-analysis of the deposited data

How the results depend on the processing

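Of 6 called regions, 1 remained without CAST/EiJ and PWK/PhJ, 3 without CAST/EiJ, 3 without PWK/PhJ and 0 when a span of 25 points was required, where limma gave an unadjusted p under 0.05 for 8 of 16 regions (50%), against 35.7% of all tested regions. The share called over all regions fell in the same refits, from 15.7% to 7.23, 12.3, 11.9 and 5.33%. Leaving out single samples gave 4 to 6 called regions, among them 3 to 6 of the original 6. Against 9 called positions, 4 were called with an offset of 1 (4 of the original 9), 16 on the untransformed percent (8 of them), 3 without CAST/EiJ and PWK/PhJ (1 of them, while 6 lost the call and 2 had no value) and 4 without PWK/PhJ (4 of them). The share over all positions in these refits was 2.9, 5.47, 1.5 and 2.9%, against 4.34%. Leaving out single samples gave 7 to 12 positions, among them 5 to 9 of the original 9. Of 1179 values of single regions and positions under alternatives, 1061 kept their side of the threshold, 116 lost the call and 2 gained it. These values include regions not called in the main fit, some of them far from the threshold. Among the called ones, the alternatives that kept the call ran from 23 of 45 at Pck1 -775 bp to 48 of 49 at the Pck1 body. The Pck1 promoter was also lost with a promoter of 250 bp either side (0.174), with deviations from each position's mean (0.0565) and untransformed (0.0905). Its call was kept on the positions listed in all 27 samples (limma adjusted p = 0.00669). The Pygl body was also lost with the 250 bp promoter, which moves positions into the body (0.731). Replicate numbers showed little sign of pairing the samples on average. Over 76 same-numbered pairs of different strains the deviations from strain means correlated at 0.00202 on average (-0.0239 to 0.0264), against -0.000615 for 248 other pairs. Of 26 samples, 10 correlated best with their own number, and the count to expect without pairing was not computed. A shared effect of the replicate number was not tested further. With a replicate block, 3 regions and 6 positions were called, where the shares over all regions and positions were 13.5 and 3.19%. The block ended the calls of the Pck1 promoter (0.135), the Pklr body (0.0748) and the Gckr downstream flank (0.0857). It kept 4 of the 9 positions and ended those at Fbp1 62865075 (0.225), Gckr 31320324 (0.0973), Pck1 -775 bp (0.151) and Pklr -3822 and -3045 bp (0.0661 and 0.0578). Without read counts, small differences between percentages cannot be separated from counting error.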

Other observations

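Which positions were listed also differed by strain within the windows of the 9 genes. Of the positions listed in at least 2 samples of a strain and in no sample of any other, 39 were in PWK/PhJ and 36 in CAST/EiJ, and each other strain had 0 to 3. These were 3.44 and 3.17% of the 1135 positions listed in the windows, where the same pattern held for 2.31 and 2.62% of all 5240332 positions of the series. Positions listed in all 8 other strains and in no sample of the strain numbered 35 in CAST/EiJ (3.08%, against 1.91% over the series) and 18 in PWK/PhJ (1.59%, against 1.87%), and 0 to 4 elsewhere. The difference between these genes and the series was not tested. By gene, Pygl had 17 positions listed in CAST/EiJ alone and 12 missing in CAST/EiJ alone, and Gys2 had 6 and 8. In PWK/PhJ, 8 positions each at Gckr, Pck1 and G6pc were listed in that strain alone, and 6 at Pck1 were missing in it alone. These values bear on what the listing rule keeps: 44 positions (3.88%, against 2.54% over the series) failed the rule through CAST/EiJ alone and 26 (2.29%, against 2.47%) through PWK/PhJ alone, against 0 to 8 through each other strain.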
